A study of Homo sapiens with 8 samples.

Results

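Heat shock proteins, their DNAJ partners and the chaperonin subunits were followed as one family. The genes whose symbols consist of HSPA, HSPB, DNAJA, DNAJB or DNAJC and a number (for HSPA also with a final A, B or L), the 3 HSP90 genes, HSPD1, HSPE1, HSPH1, the subunits of the TRiC chaperonin, the transcription factors HSF1 and HSF2 and the HSP90 partners STIP1, AHSA1 and CHORDC1 were taken by symbol. This gave 86 genes of the 57992 in the Molm13 table, and each was found under the same identifier in the THP1 table. The family was proposed because many of its genes were low after PRMT9 knockdown (KD) in Molm13. The Molm13 fold changes, and the differences between the lines that contain them, are therefore given as a description, with their errors and without P values.

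The libraries were polyA RNA-seq of Molm13 and THP1, a pair of human acute myeloid leukemia (AML) lines. Each line carried either a control hairpin (shCtrl, genotype labeled WT) or a hairpin against PRMT9 (shPRMT9), an arginine methyltransferase, and all groups were given doxycycline (Dox) to induce the hairpin. There were 2 libraries per group and 8 in all, with 18720950 to 27356870 counted reads each. Nothing in the labels says that libraries of a group came from separate cultures, so P values measure only the spread between these libraries. It is also not said whether the numbers of the shPRMT9 libraries mark repeats of one hairpin or different hairpins.

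Chaperones bind unfolded proteins and help them fold. HSP70 proteins work in cycles of ATP hydrolysis that DNAJ proteins start and HSP110 proteins, as nucleotide exchange factors, reset, and HSP90 takes over client proteins, many of them kinases. TRiC is a closed ring that folds actin and tubulin, and HSPA5 and HSP90B1 work in the endoplasmic reticulum while HSPA9, HSPD1 and HSPE1 work in mitochondria. HSF1 binds repeated heat shock elements in the promoters of many of these genes, and cancer cells are known to depend on HSP90 and HSP70.

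PRMT9 had 332 and 289 counts in the Molm13 shCtrl libraries and 41 and 56 with shPRMT9, and 317 and 352 against 60 and 68 in THP1. Its log2 fold change was -2.68 in Molm13 (adjusted p = 1.2e-21) and -2.29 in THP1 (adjusted p = 3.5e-14, quasi-likelihood test of edgeR, Benjamini-Hochberg adjusted). Of 12 myeloid marker genes, 10 to 11 were above 1 CPM (counts per 1000000 counted reads) in each group, and erythroid markers were at or near 0. The other marker lists were not at 0. B cell markers summed to 39.5 to 42.9 CPM in Molm13, mostly PAX5 (38.6 to 42.4 CPM), and to 4.02 to 14.1 CPM in THP1. T and NK cell markers reached 26.7 CPM in Molm13 and 9.55 CPM in THP1, and epithelial and stromal markers 20.4 and 3.63 CPM. The summed myeloid markers moved with KD, with 1650 to 1660 CPM in Molm13 shCtrl and 2590 to 2600 CPM after KD, and 2850 to 2900 CPM in THP1 shCtrl and 4170 to 4320 CPM after KD. LYZ, among the 12, ran from 633 to 1011 CPM over the Molm13 libraries and from 1880 to 3156 CPM over those of THP1. The part of the shift in the summed markers in the results below was not tested. In bulk RNA, fewer cells that express a gene and less RNA per cell cannot be told apart. The sample names inside the THP1 table also carry the letters OCI, and the group of each library was taken from its label.

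The promoters that carry the family's best known control elements are shown first. RefSeq promoter windows (GRCh38.p14, 250 bases before to 50 after a start) matched 76 of the 86 genes. The heat shock element of 3 units was searched as GAA, TTC and GAA, or TTC, GAA and TTC, each 2 bases apart, which are the 2 strands of one pattern. It stood in the windows of 8 of 76 members (10.5%), against 0.608% of the 27305 genes of the table. The 8 were HSPA8, HSP90AA1, HSP90AB1, HSPA6, HSPD1, CHORDC1, DNAJA1 and DNAJB6. Below are the 250 bases before the start of 4 of them, with the heat shock elements in capitals. They are shown because 3 of these genes fell in Molm13 and HSPA6 rose there.

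HSPA8, chr11:123062137-123062386, minus strand: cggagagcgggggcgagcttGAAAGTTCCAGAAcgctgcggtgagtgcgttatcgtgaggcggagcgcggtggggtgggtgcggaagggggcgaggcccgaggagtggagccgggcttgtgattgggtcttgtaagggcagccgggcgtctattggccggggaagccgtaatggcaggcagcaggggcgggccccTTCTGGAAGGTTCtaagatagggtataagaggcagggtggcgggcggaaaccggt
HSP90AA1, chr14:102087045-102087294, minus strand: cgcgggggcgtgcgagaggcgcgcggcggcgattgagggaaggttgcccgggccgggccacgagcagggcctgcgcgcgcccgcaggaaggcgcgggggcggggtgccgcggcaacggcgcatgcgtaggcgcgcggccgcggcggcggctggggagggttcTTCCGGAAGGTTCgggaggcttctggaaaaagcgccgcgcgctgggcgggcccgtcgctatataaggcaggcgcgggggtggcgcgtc
CHORDC1, chr11:90223050-90223299, minus strand: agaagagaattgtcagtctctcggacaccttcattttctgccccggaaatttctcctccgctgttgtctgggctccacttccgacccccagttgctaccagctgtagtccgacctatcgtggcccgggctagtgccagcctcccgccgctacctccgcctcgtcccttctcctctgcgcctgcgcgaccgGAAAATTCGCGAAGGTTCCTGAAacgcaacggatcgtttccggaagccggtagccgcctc
HSPA6, chr1:161524290-161524539, plus strand: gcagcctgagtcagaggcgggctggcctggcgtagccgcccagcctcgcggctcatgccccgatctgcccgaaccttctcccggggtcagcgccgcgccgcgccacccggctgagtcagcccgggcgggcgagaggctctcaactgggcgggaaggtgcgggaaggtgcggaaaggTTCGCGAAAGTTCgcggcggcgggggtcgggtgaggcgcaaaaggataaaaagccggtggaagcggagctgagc

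HSPA8 held 2 such elements, 230 to 218 and 55 to 43 bases before the start. HSP90AA1 held a single element 88 to 76 bases before the start and HSPA6 one at 74 to 62 bases, and CHORDC1 held a longer run from 60 to 38 bases. The endoplasmic reticulum stress element was searched as CCAAT followed by CCACG after 9 bases, on both strands, a spacing that was chosen after CCAAT and CCACG had been counted separately. It was found for HSPA5 and HSP90B1 (2.63% of members, against 0.0916% of all genes). The HSPA5 window is shown because the endoplasmic reticulum genes form one of the groups below.

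HSPA5, chr9:125241344-125241593, minus strand: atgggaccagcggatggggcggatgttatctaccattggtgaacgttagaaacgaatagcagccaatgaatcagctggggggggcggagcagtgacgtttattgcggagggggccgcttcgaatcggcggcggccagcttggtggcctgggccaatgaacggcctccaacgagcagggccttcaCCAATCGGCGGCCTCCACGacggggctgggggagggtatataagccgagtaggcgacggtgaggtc

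HSPD1 and HSPE1, the mitochondrial chaperonin and its lid, are transcribed away from each other, with only 104 bases between their RefSeq starts. The stretch between them is shown because one short region serves both genes. It held no heat shock element of 3 units, so the match counted for HSPD1 was not within this stretch.

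HSPD1 to HSPE1, chr2:197500275-197500378, plus strand: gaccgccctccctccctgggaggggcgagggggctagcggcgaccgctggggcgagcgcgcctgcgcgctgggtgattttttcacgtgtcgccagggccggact

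The shorter motifs were common. The form of 2 units (GAANNTTC or TTCNNGAA, which the longer element contains) was in 36.8% of member windows and 16.2% of all genes, the CCAAT box (CCAAT or ATTGG) in 43.4% and 39.7%, and CCACG or CGTGG in 63.2% and 42.1%. Among members with a window, the element of 3 units was in 3 of 17 that were called lower in Molm13, 1 of 5 called higher and 4 of 41 tested and not called. A match describes letters in a window and does not show that a factor binds there.

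As a family the 86 genes took up a large part of each library. They held 1.97 and 1.98% of all counted reads in the Molm13 shCtrl libraries and 1.39 and 1.41% in shPRMT9. In THP1 the shares were 2.09 and 2.11% in shCtrl and 2.17 and 2.15% in shPRMT9. Both Molm13 shPRMT9 libraries thus lay below the other 6, and the THP1 libraries lay close together. In each library 5 genes, HSPA8, HSP90AB1, HSP90AA1, HSP90B1 and HSPD1, together held 45.7 to 51.3% of the family's reads.

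**Figure D1:**
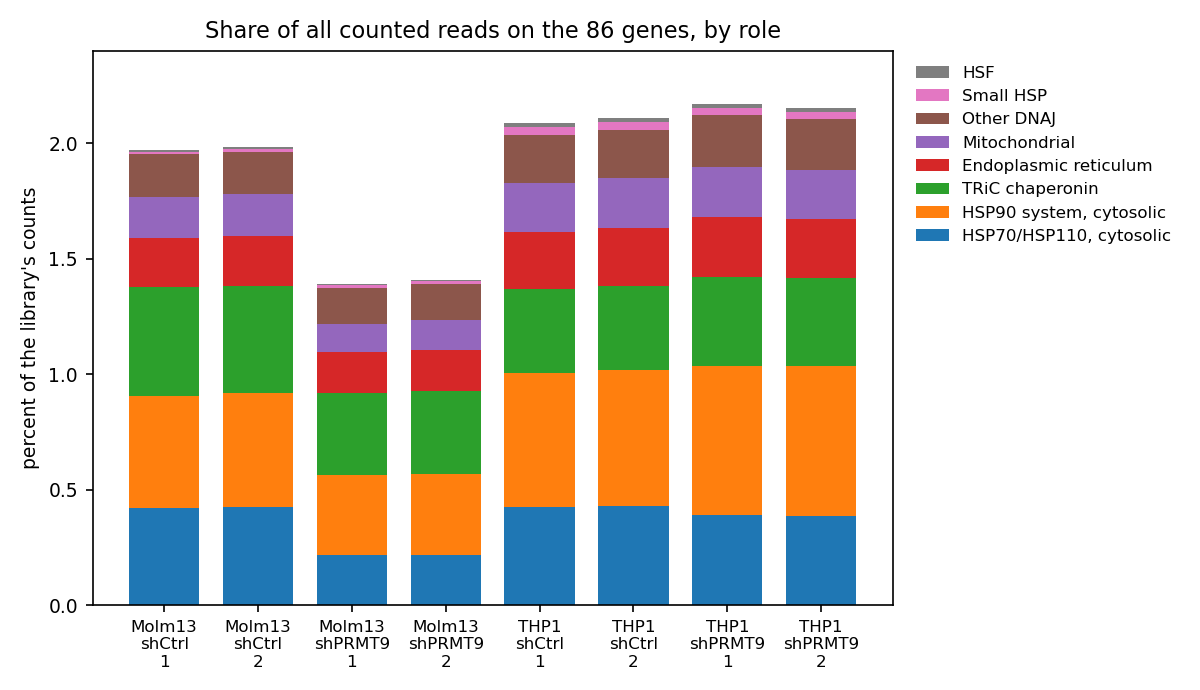
Stacked bars give, for each of the 8 libraries, the percent of all counted reads that fell on the 86 genes, divided by role. The Molm13 shPRMT9 bars reach 1.39 and 1.41%, and the other 6 bars reach 1.97 to 2.17%.

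The loss in Molm13 was unequal among roles. Cytosolic HSP70 and HSP110 genes went from 0.421 and 0.424% of reads in shCtrl to 0.220 and 0.219% in shPRMT9, and the cytosolic HSP90 system from 0.487 and 0.494% to 0.343 and 0.349%. Genes of the endoplasmic reticulum went from 0.213 and 0.214% to 0.177% in both libraries. Small heat shock proteins were at 0.0109 and 0.0107% in shCtrl and 0.0111 and 0.0107% in shPRMT9, so these groups overlapped.

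In Molm13, 70 of the 86 genes passed the filter on low counts. A gene was called when its FDR was under 0.05, it changed by more than 1.5-fold either way, and its level was above 1 RPKM (CPM divided by the exon length in kilobases) in at least one library. By these limits 19 members were lower (27.1% of those tested, against 11.3% of all 16446 genes tested) and 6 were higher (8.57%, against 11.4%), 25 in all (35.7%, against 22.8%). At FDR alone, with no limit on the size, 44 were lower and 16 higher (all genes, 33.5% and 33.4%, or 66.9% together). Their median log2 fold change was -0.322, beside 0.000472 for all genes tested. The shCtrl and shPRMT9 libraries did not overlap for 47 members that were lower and 19 that were higher (all genes, 40.8% and 41.2%).

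In THP1, 73 of the 86 genes were tested and 1 was called, DNAJC9, which was lower (1.37%, against 2.39% of all 16294 genes tested). No member was called higher (all genes, 3.83%, or 6.22% in either direction). By edgeR's quasi-likelihood test at FDR alone, with no limit on the fold change, 28 members were higher and 10 lower (all genes, 19% and 18.6%, or 37.6% together). The median log2 fold change was 0.0964, beside -0.000631 for all genes. The libraries did not overlap for 38 members that were higher and 15 that were lower (all genes, 33% each). The change in THP1 was thus small for nearly all of the family, and the members that passed the FDR without the fold limit had log2 fold changes from -0.69 to 0.50.

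**Figure D2:**
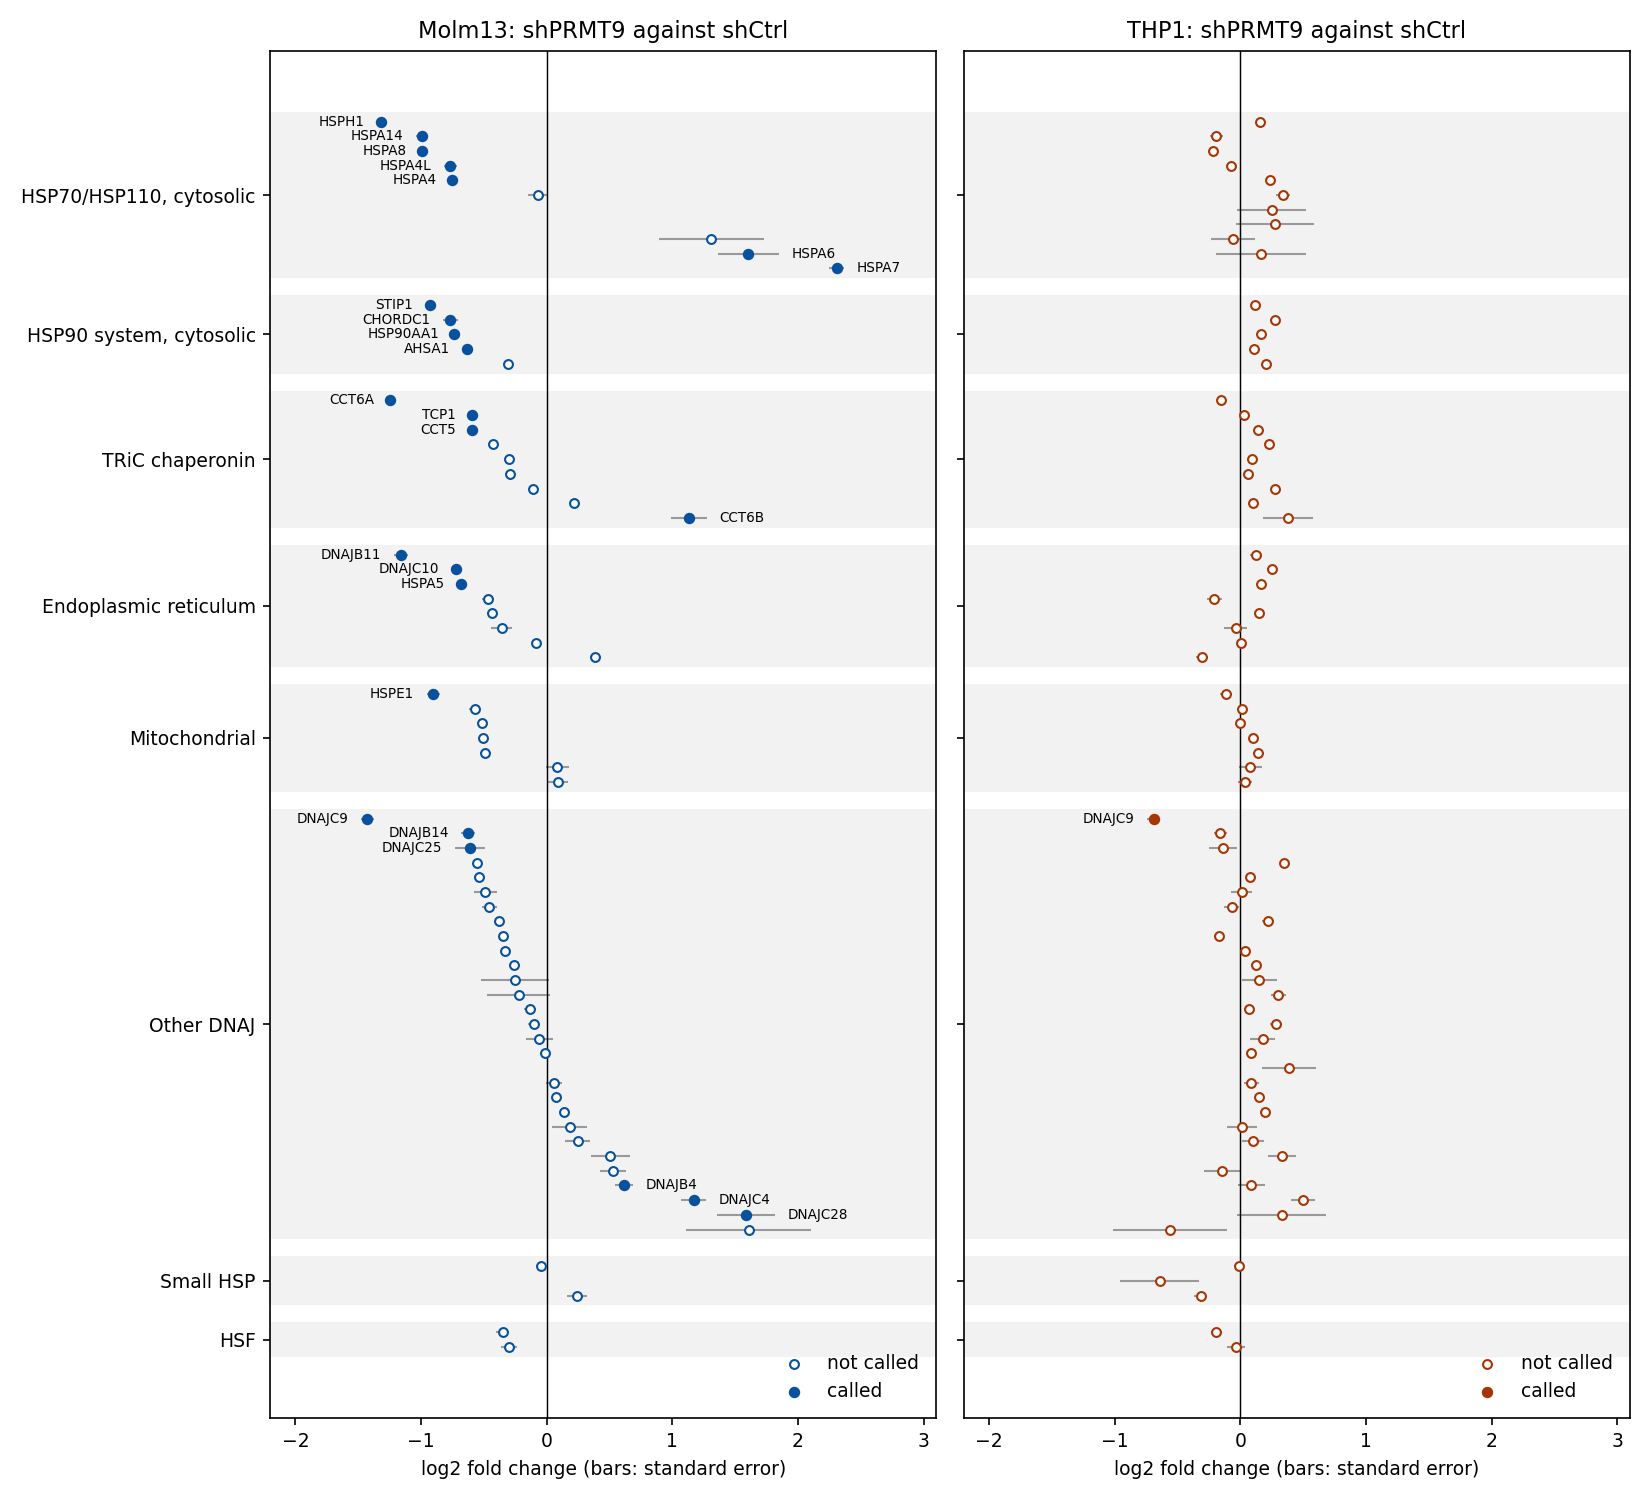
Each point is 1 tested member, grouped by role on the vertical axis, with its log2 fold change (shPRMT9 against shCtrl) and standard error on the horizontal axis. Filled points were called, 25 in Molm13 and 1 in THP1, and most Molm13 points of the first 5 roles lie to the left of 0.

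The effect of KD was also compared between the lines in a fit of all 8 libraries. The log2 fold change in THP1 exceeded that in Molm13 by more than 1.5-fold at an FDR below 0.05 for 25 of 74 members tested (33.8%, against 9.72% of all 19288 genes), and was lower for 9 (12.2%, against 11.1%), 34 in all (45.9%, against 20.9%). At FDR alone it was higher for 45 and lower for 12 (all genes, 22.8% and 19.4%, or 42.2% together). The median difference was 0.400, beside 0.0295 for all genes. These calls contain the Molm13 contrast through which the family was proposed, so nothing is read from their number. The Molm13 and THP1 contrasts share no library. Of the 19 members called lower in Molm13, 10 were higher at an FDR below 0.05 in THP1, 5 were lower and 4 did not pass. Over the whole table, 1521 genes called lower in Molm13 were tested in THP1, of which 10.9% were higher there at the same FDR and 38.6% lower. Of all 13476 genes tested in both lines, 21.1% were higher in THP1 and 20.6% lower. These genes were not matched to the members for level, so the shares are given as a description.

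Cytosolic HSP70 and HSP110 genes held 5 of the 19 falls in Molm13. Of 9 tested there, 5 were called lower (55.6%, against 11.3% of all genes) and 2 higher (22.2%, against 11.4%). None of 10 tested in THP1 was called (all genes, 6.22% in either direction). HSPA8, the constitutive HSP70 of the cytosol, had 3009 and 3085 CPM in the Molm13 shCtrl libraries, 1538 and 1525 CPM with shPRMT9, 3162 and 3104 CPM in THP1 shCtrl and 2694 and 2704 CPM in THP1 shPRMT9. It was lower with KD in both lines without overlap, and the Molm13 KD libraries stood far below all others. Its log2 fold change was -0.99 ± 0.02 (SE) in Molm13 and -0.22 ± 0.03 in THP1 (adjusted p = 1.2e-07, edgeR's quasi-likelihood test). HSPA8 was called in Molm13 alone because its change in THP1 was under 1.5-fold.

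HSPH1 (HSP110), a nucleotide exchange factor of HSP70, had 601 and 608 CPM in Molm13 shCtrl and 240 and 243 CPM with shPRMT9. In THP1 it had 555 and 551 CPM against 615 and 620 CPM. The direction was thus opposite in the 2 lines, with a log2 fold change of -1.32 ± 0.03 in Molm13 and 0.16 ± 0.03 in THP1 (adjusted p = 5.8e-05, edgeR's quasi-likelihood test). HSPA4, a relative of HSPH1 with the same activity, had 387 and 389 CPM against 231 and 230 CPM in Molm13, and 343 and 348 CPM against 411 and 403 CPM in THP1. It too went down in Molm13 (-0.75 ± 0.03) and up in THP1 (0.23 ± 0.03, adjusted p = 4.4e-07).

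HSPA4L, the third gene of that HSP110 group, had 63.3 and 63.5 CPM against 36.9 and 37.5 CPM in Molm13 (-0.77 ± 0.05). In THP1 its log2 fold change was -0.07 ± 0.04 (adjusted p = 0.19). HSPA14, which acts with a DNAJ protein on the ribosome, had 93.1 and 95.1 CPM against 48.1 and 46.3 CPM in Molm13 (-0.99 ± 0.05). In THP1 it had 54.8 and 53.6 CPM against 47.8 and 47.1 CPM, a log2 fold change of -0.19 ± 0.05 (adjusted p = 0.0042). HSPA14 shares 8855 bases with another annotated gene on the same strand, so reads could be divided between them.

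HSPA1B, a stress-inducible HSP70 gene, did not move with the constitutive HSPA8. HSPA1B had 21.1 and 22.4 CPM in Molm13 shCtrl and 19.8 and 21.5 CPM with shPRMT9, which overlapped (-0.07 ± 0.08). In THP1 it had 32.6 and 34.1 CPM against 41.6 and 42.8 CPM, and it was higher (0.34 ± 0.06, adjusted p = 3.1e-05, edgeR's quasi-likelihood test). HSPA1A had at most 6 counts in any Molm13 library, where it was not tested, and 31 to 47 in THP1. HSPA1A and HSPA1B code for almost the same protein, so reads that fit both cannot be assigned and the values of each are uncertain.

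HSPA6 and HSPA7 rose in Molm13. HSPA7, annotated as an unprocessed pseudogene, had 335 and 332 counts in Molm13 shCtrl, 1592 and 1704 with shPRMT9 and 4 to 7 in the THP1 libraries. Its log2 fold change of 2.31 ± 0.06 was the largest rise among tested members in Molm13, and it did not pass the filter in THP1. HSPA6, a strictly inducible HSP70, had 22 and 29 counts against 89 and 66 in Molm13 (1.60 ± 0.24), and 18 to 22 counts in the THP1 libraries. The 2 are near-identical neighbors on chromosome 1, and HSPA6 lies within a further gene on its own strand over 2371 bases, so reads could be shared between them.

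**Figure D3:**
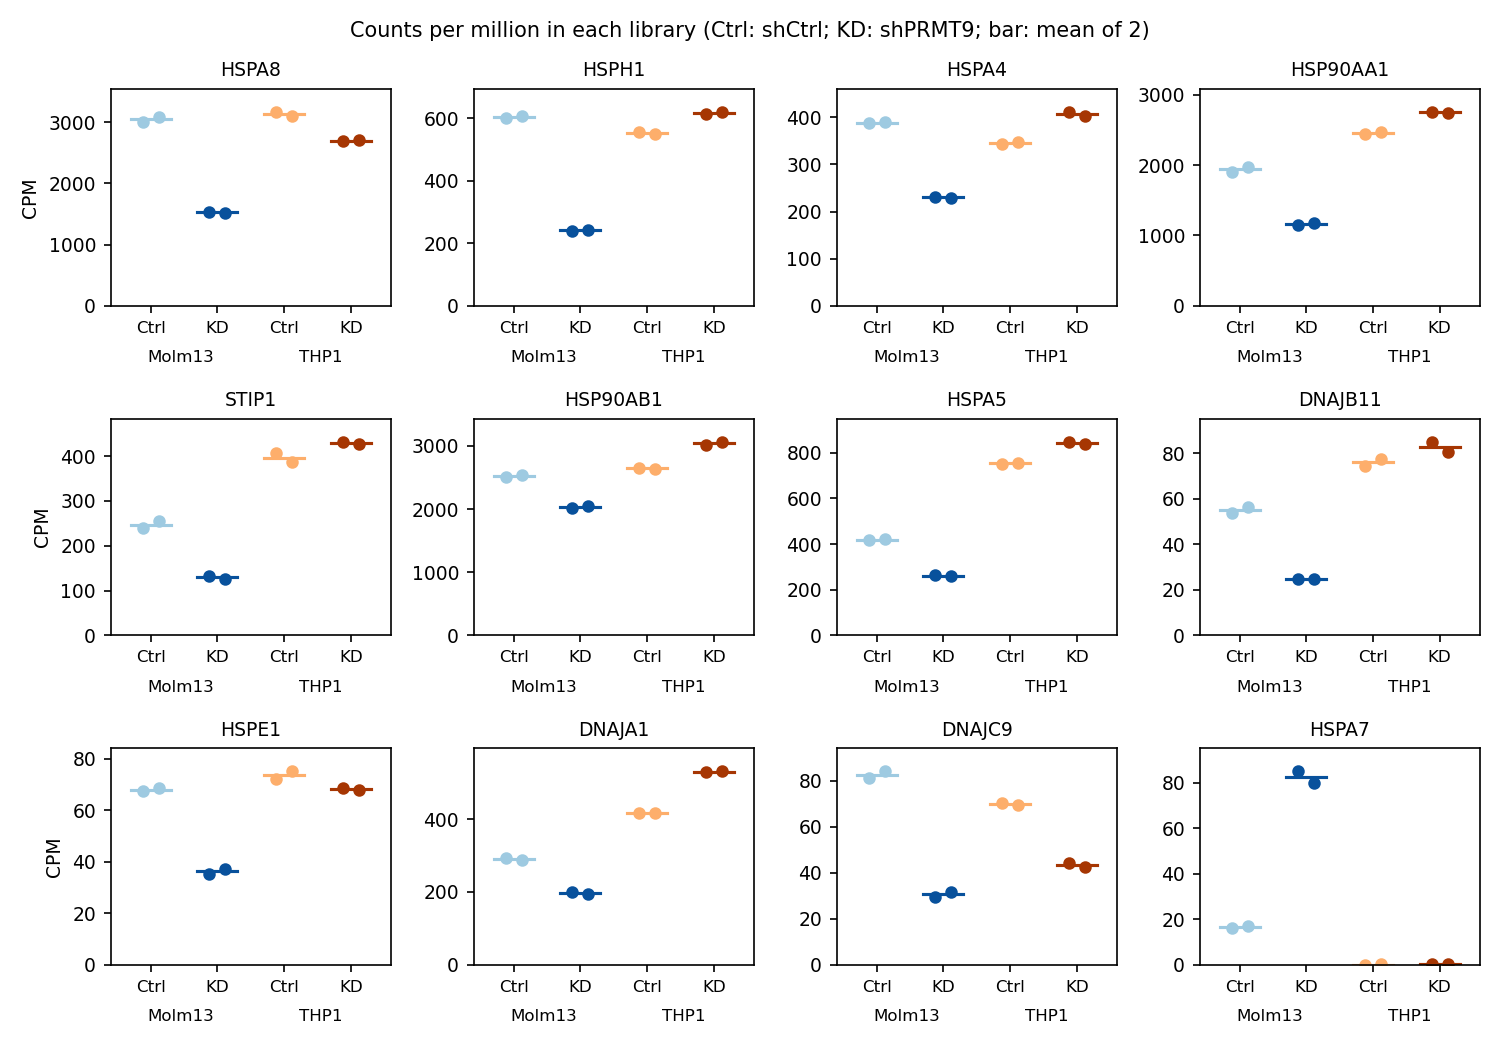
CPM of 12 members in each of the 8 libraries (points) with the mean of each group of 2 (bars); each panel has its own vertical axis from 0. The Molm13 KD libraries are the lowest of the 4 groups in all panels but HSPA7, where they are the highest.

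All 5 genes of the cytosolic HSP90 system were lower in Molm13 and higher in THP1. In Molm13, 4 of them were called (80%, against 11.3% of all genes called lower), and in THP1 none was (all genes, 6.22% in either direction). HSP90AA1, the inducible HSP90, had 1906 and 1971 CPM in Molm13 shCtrl and 1154 and 1174 CPM with shPRMT9. In THP1 it had 2435 and 2474 CPM against 2749 and 2742 CPM. The log2 fold change was -0.74 ± 0.02 in Molm13 and 0.16 ± 0.03 in THP1 (adjusted p = 1.2e-05, edgeR's quasi-likelihood test), and the groups did not overlap in either line.

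HSP90AB1, the constitutive HSP90, moved less. It had 2501 and 2544 CPM against 2017 and 2047 CPM in Molm13 (-0.31 ± 0.02, not called for its size), and 2650 and 2636 CPM against 3017 and 3065 CPM in THP1 (0.20 ± 0.03, adjusted p = 3.3e-07). Per length it was the most abundant member in every group, from 682 RPKM in Molm13 shPRMT9 to 1021 RPKM in THP1 shPRMT9.

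STIP1, also called HOP, which bridges HSP70 and HSP90, had 239 and 254 CPM against 133 and 126 CPM in Molm13 (-0.93 ± 0.03). In THP1 it had 406 and 386 CPM against 432 and 428 CPM (0.12 ± 0.03, adjusted p = 0.0036). AHSA1, which activates the ATPase of HSP90, changed by -0.63 ± 0.04 in Molm13 and 0.11 ± 0.03 in THP1 (adjusted p = 0.013). CHORDC1, an HSP90 partner, changed by -0.77 ± 0.06 and 0.28 ± 0.04 (adjusted p = 2.2e-06). The fall of CHORDC1 in Molm13 thus matched that of HSP90AA1 in size, and its rise in THP1 was the largest of the 5.

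The TRiC chaperonin has 8 subunits, which stand in equal number in the ring, and CCT6B, a testis form of CCT6A. In Molm13, 3 of the 9 genes were called lower and 1 higher (33.3% and 11.1%, against 11.3% and 11.4% of all genes), and in THP1 none was called (all genes, 6.22% in either direction). CCT6A had 569 and 568 CPM in Molm13 shCtrl, 237 and 243 CPM with shPRMT9, 420 and 423 CPM in THP1 shCtrl and 387 and 371 CPM in THP1 shPRMT9. It was lower with KD in both lines, by -1.24 ± 0.03 in Molm13 and -0.15 ± 0.03 in THP1 (adjusted p = 0.00027, edgeR's quasi-likelihood test).

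TCP1, which names the complex, had 617 and 625 CPM against 407 and 414 CPM in Molm13 (-0.60 ± 0.02), and in THP1 its log2 fold change was 0.03 ± 0.03 (adjusted p = 0.50). CCT5 had 765 and 754 CPM against 506 and 500 CPM in Molm13 (-0.60 ± 0.02) and was higher in THP1 (0.14 ± 0.03, adjusted p = 0.00016). CCT6B, with 82 and 71 counts against 168 and 167 in Molm13, rose by 1.13 ± 0.14. It overlaps the genes ZNF830 and LIG3 on the other strand, and the strand setting of the counting was not stated.

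The remaining subunits are given because the ring needs all 8; they were added after their values were seen. CCT8 had 549 and 556 CPM in Molm13 shCtrl and 630 and 654 CPM with shPRMT9, a rise of 0.22 ± 0.02. CCT3 (-0.43), CCT7 (-0.30), CCT2 (-0.29) and CCT4 (-0.11) were lower in log2 fold change. The 8 subunits therefore spread apart in Molm13. Per length they ranged from 106 RPKM (CCT7) to 177 RPKM (CCT3) in shCtrl, a 1.67-fold range, and from 61.5 RPKM (CCT6A) to 192 RPKM (CCT8) with shPRMT9, a 3.13-fold range. In THP1 the ranges were 2.08-fold in shCtrl and 2.11-fold with shPRMT9. Processed copies of several subunits exist in the genome and can share reads, and the RPKM depends on the exon length in the authors' table.

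**Figure D4:**
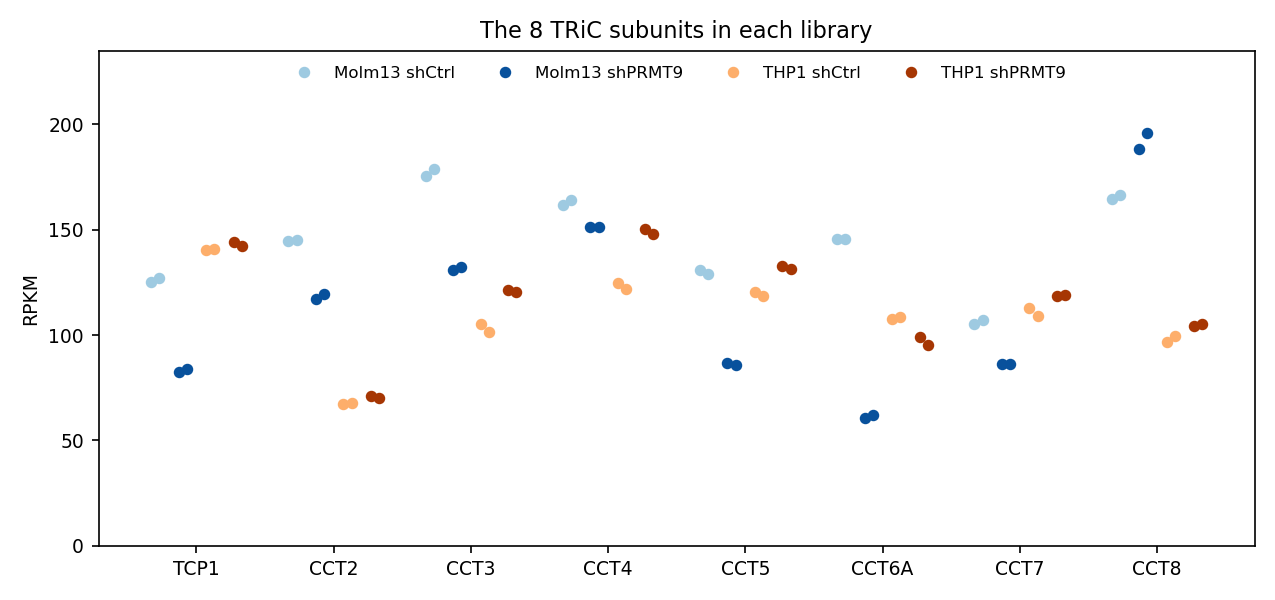
RPKM of the 8 ring subunits in each library, with 2 points per group. In Molm13 the KD points lie below the shCtrl points for all subunits but CCT8, and CCT6A has the lowest KD value, 61.5 RPKM.

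Of the 8 endoplasmic reticulum genes, 3 were called lower in Molm13 (37.5%, against 11.3% of all genes). HSPA5 (BiP), the HSP70 of this compartment, had 416 and 423 CPM against 263 and 259 CPM in Molm13 and 752 and 753 CPM against 847 and 837 CPM in THP1. The log2 fold change was -0.68 ± 0.03 in Molm13 and 0.16 ± 0.03 in THP1 (adjusted p = 3e-05, edgeR's quasi-likelihood test), with no overlap in either line. Both THP1 groups lay above both Molm13 groups.

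DNAJB11, a DNAJ partner of BiP, had 53.6 and 56.2 CPM against 24.6 and 24.5 CPM in Molm13 (-1.16 ± 0.06). In THP1 it had 74.3 and 77.4 CPM against 84.9 and 80.4 CPM (0.12 ± 0.05, adjusted p = 0.034, edgeR's quasi-likelihood test). It shares 3806 bases with RP11-134F2.8 on its own strand and 3141 with TBCCD1 on the other. DNAJC10, a reductase that also works with BiP, had 171 and 177 CPM against 103 and 107 CPM in Molm13 (-0.73 ± 0.03), and 124 and 123 CPM against 148 and 146 CPM in THP1 (0.25 ± 0.04, adjusted p = 2.9e-06). HSP90B1, the HSP90 of the endoplasmic reticulum, was nearly level. It had 1198 and 1209 CPM against 1135 and 1128 CPM in Molm13 (-0.09 ± 0.02), and 1295 and 1289 CPM against 1298 and 1293 CPM in THP1, where the groups overlapped.

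The 21 other genes of endoplasmic reticulum folding and stress gave 4 calls lower and 1 higher in Molm13 (all genes, 11.3% and 11.4%), and none in THP1 (all genes, 2.39% lower and 3.83% higher). SDF2L1 (-1.34 ± 0.10) and HYOU1 (-1.08 ± 0.04), which bind BiP or resemble HSP70, and CRELD2 (-1.23 ± 0.12) and MANF (-0.97 ± 0.08), both secreted stress proteins, were lower in log2 fold change. DDIT3 (CHOP), a transcription factor of the stress response, was higher (1.04 ± 0.08). The median of the list was -0.286 in Molm13 and 0.0431 in THP1.

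Of 7 mitochondrial members, 1 was called lower in Molm13 (14.3%, against 11.3% of all genes). HSPE1 had 67.4 and 68.5 CPM against 35.4 and 37.1 CPM there (-0.90 ± 0.05), and 72.2 and 75.1 CPM against 68.5 and 67.9 CPM in THP1 (-0.11 ± 0.05, adjusted p = 0.062, edgeR's quasi-likelihood test). Its neighbor HSPD1 had 779 and 792 CPM against 535 and 561 CPM in Molm13 (-0.52 ± 0.02, under the fold limit), and 1133 and 1150 CPM against 1145 and 1136 CPM in THP1, which overlapped. HSPE1 shares 3045 bases with the read-through gene HSPE1-MOB4 on its own strand. It also overlaps HSPD1 on the other strand over 3464 bases, and the strand setting of the counting was not stated. The counts of both genes thus depend on how such reads were assigned. HSPA9 (mortalin), the HSP70 that pulls proteins into mitochondria, changed by -0.50 ± 0.02 in Molm13 and 0.10 ± 0.03 in THP1 (adjusted p = 0.0062).

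Reads on the mitochondrial genome made up 6.69 and 6.64% of counts in Molm13 shCtrl and 6.40 and 6.24% with shPRMT9, and their part in these values was not tested. Of 10 further genes of mitochondrial proteostasis, GRPEL2, an exchange factor of HSPA9, was called lower in Molm13 (-0.73 ± 0.06) and HSCB, a DNAJ protein of iron-sulfur cluster assembly, higher (0.84 ± 0.13). With 1 lower and 1 higher, these 10 were near the 11.3% and 11.4% of all genes in Molm13. In THP1 none of the 10 was called (all genes, 6.22% in either direction).

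Among the other DNAJ genes, 28 were tested in Molm13, of which 3 were called lower and 3 higher (10.7% each, close to the 11.3% and 11.4% of all genes). DNAJC9, a chaperone that binds histones H3 and H4, had 81.0 and 84.0 CPM against 29.7 and 31.5 CPM in Molm13, and 70.4 and 69.2 CPM against 44.1 and 42.6 CPM in THP1. It was the member with the largest fall in each line, by -1.43 ± 0.05 in Molm13 and -0.69 ± 0.05 in THP1 (adjusted p = 7.7e-12, edgeR's quasi-likelihood test). FAM149B1 and DNAJC9-AS1 overlap it on the other strand.

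DNAJA1 and DNAJB1, the main DNAJ partners of cytosolic HSP70, stood just outside the fold limit. DNAJA3, a mitochondrial DNAJ protein that was not called either, came nearest to it at -0.57 in Molm13. DNAJA1 had 292 and 286 CPM against 200.3 and 194 CPM in Molm13 (-0.55 ± 0.03), and 418 and 416 CPM against 529 and 531 CPM in THP1. The rise in THP1, 0.35 ± 0.03, had an adjusted p of 1.5e-10 by edgeR's quasi-likelihood test. DNAJB1 changed by -0.54 ± 0.04 in Molm13 and 0.08 ± 0.04 in THP1 (adjusted p = 0.086). By comparison TCP1 and CCT5, at -0.60 each, were the called members nearest to the limit on the lower side, and DNAJB4 at 0.61 on the upper side.

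The 3 DNAJ genes called higher in Molm13 were at low levels. DNAJC28 had 24 and 25 counts against 64 and 84 (1.59 ± 0.23), DNAJC4 had 161 and 195 against 353 and 448 (1.17 ± 0.10), and DNAJB4 had 390 and 409 against 571 and 653 (0.61 ± 0.07). DNAJC4 was higher in THP1 as well (0.50 ± 0.10, adjusted p = 0.00012, edgeR's quasi-likelihood test), while DNAJC28 (0.33 ± 0.35) and DNAJB4 (0.09 ± 0.11) did not pass. DNAJB4 shares 38423 bases with GIPC2 on the same strand. DNAJC4 shares 409 bases with NUDT22 on its own strand and 4009 with RP11-783K16.14 on the other.

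Small heat shock proteins, which hold unfolded proteins without ATP, were mostly at few or no counts. Of 8 genes, 2 were tested in Molm13 and 3 in THP1, and none was called (all genes, 22.8% and 6.22% in either direction). HSPB1 (HSP27) had 91.5 and 89.9 CPM against 88.3 and 87.5 CPM in Molm13 (-0.05 ± 0.04), and 276 and 245 CPM against 258 and 258 CPM in THP1 (-0.01 ± 0.04, adjusted p = 0.83, edgeR's quasi-likelihood test). HSPB11, which despite its name is known as a part of the intraflagellar transport machinery, had 17.3 and 17.7 CPM against 22.1 and 19.4 CPM in Molm13 (0.24 ± 0.08), and 63.7 and 60.2 CPM against 49.8 CPM in both libraries in THP1. It was higher with KD in Molm13 and lower in THP1 without overlap (-0.31 ± 0.05 in THP1, adjusted p = 1.4e-05, edgeR's quasi-likelihood test), and both changes were under the fold limit. HSPB7, tested in THP1 alone, had 36 and 34 counts against 18 and 24 there (-0.64 ± 0.32, adjusted p = 0.12). HSPB2, HSPB3, HSPB8, DNAJB3 and DNAJB8 had 0 counts in all 8 libraries, which allows up to 3 counts in each.

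The transcription factors that drive the heat shock program were lower by less than 1.5-fold. HSF1 had 60.6 and 70.1 CPM against 49.3 and 53.0 CPM in Molm13 (-0.35 ± 0.05), and 153 and 146 CPM against 125 and 137 CPM in THP1 (-0.19 ± 0.04, adjusted p = 6e-04, edgeR's quasi-likelihood test). HSF2 had 31.9 and 33.1 CPM against 25.9 and 26.8 CPM in Molm13 (-0.30 ± 0.07), and its groups overlapped in THP1. Of 19 further cochaperones, 2 were called lower in Molm13, the immunophilins FKBP4 (-0.76 ± 0.04) and FKBP5 (-0.59 ± 0.04), a share near the 11.3% of all genes. None of 9 prefoldin and TRiC helper genes was called in Molm13 (all genes, 22.8% in either direction). No gene of either list was called in THP1 (all genes, 6.22%).

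Before KD, the shCtrl libraries of the 2 lines differed for many members. With a fold limit of 1.5 the share called was smaller among members than among all genes. At FDR alone it was larger. Line, sequencing run and handling cannot be told apart in this comparison, and it shares its shCtrl libraries with the contrasts above. At an FDR below 0.05 and a fold change above 1.5, 19 of 74 members tested were higher in THP1 (25.7%, against 28.4% of all genes) and 12 lower (16.2%, against 31.1%). The median log2 difference was 0.0694, beside -0.026 for all genes. In both directions together, 41.9% of the members tested were called, against 59.5% of all genes. At FDR alone 37 were higher and 29 lower, 66 of 74 together (all genes, 40.1% and 42.7%, or 82.8% together).

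**Figure D5:**
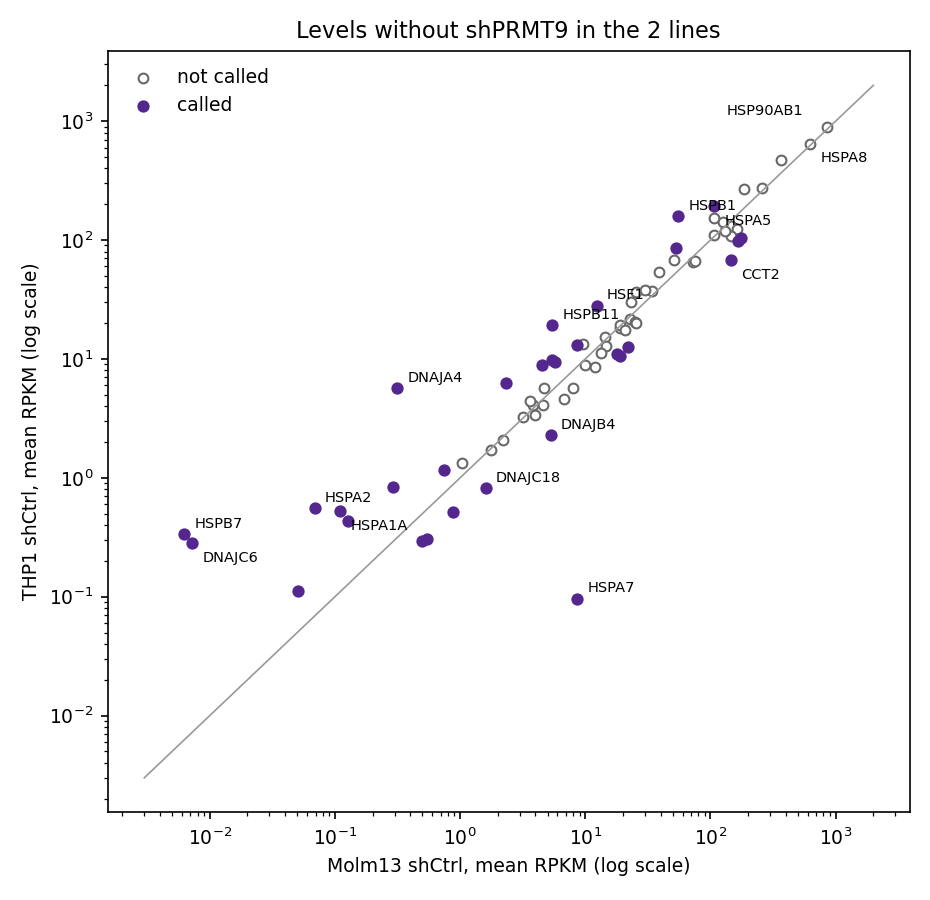
Mean RPKM of each member tested and counted in both shCtrl groups, with Molm13 on the horizontal and THP1 on the vertical axis, both on log scales; the line marks equal levels. Abundant members such as HSPA8 and HSP90AB1 lie near the line, and HSPA7, HSPB7, DNAJC6 and DNAJA4 lie farthest from it.

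The most abundant members were alike in order. HSP90AB1 (847 ± 10.2 RPKM in Molm13 and 887 ± 3.39 in THP1, SD, n = 2), HSPA8 (628 ± 11.1 and 646 ± 8.52), HSP90AA1 (369 ± 8.69 and 468 ± 5.18) and HSP90B1 (257 ± 1.64 and 276 ± 0.88) were the first 4 in both shCtrl groups, followed by HSPD1. Neighbors in this order were apart by more than their SDs, and the closest were HSP90B1 and HSPD1 in THP1, at 276 ± 0.88 and 269 ± 2.76 RPKM. In Molm13 with shPRMT9, HSP90B1 (241 ± 1.08 RPKM) stood above HSP90AA1 (222 ± 2.64 RPKM), an order not seen in the other 3 groups.

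The widest baseline differences were in low genes. DNAJA4, an HSP70 partner, had 2.45 and 1.69 CPM in Molm13 shCtrl and 37.4 and 37.8 CPM in THP1 shCtrl (4.18 ± 0.12, adjusted p = 3.8e-53, edgeR's quasi-likelihood test). HSPA2, best known from testis, had 10 and 6 counts against 84 and 88 (2.99 ± 0.31). HSPB7 had 1 count in the Molm13 shCtrl libraries together and 70 in those of THP1, a ratio of 53.0 by library size (95% exact interval 9.21 to 2120), and DNAJC6, a clathrin uncoating factor, had 2 and 105, a ratio of 39.7 (10.7 to 333). These intervals cover counting error only. HSPA1A was higher in THP1 by 2.23 ± 0.44 on the log2 scale.

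HSPA7 was lower in THP1 by the widest margin, with 335 and 332 counts in Molm13 shCtrl against 4 and 6. DNAJB4 (-1.20 ± 0.09), CCT2 (-1.10 ± 0.03), DNAJC18 (-0.95 ± 0.12) and DNAJC2, which acts at the ribosome with HSPA14 (-0.85 ± 0.04), followed among the called members. CCT2 had 625 and 627 CPM in Molm13 shCtrl and 291 and 293 CPM in THP1 shCtrl, and at 67.5 RPKM it was the lowest ring subunit in THP1. HSPB1 was higher in THP1 (1.53 ± 0.04, adjusted p = 1.8e-57), as was HSF1 (1.20 ± 0.05, adjusted p = 6.7e-43), both by edgeR's quasi-likelihood test.

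In all, 12 members were tested in no fit because their counts were too low, HSPA12A, HSPA12B, DNAJB7, DNAJB13, DNAJC12, HSPB6 and HSPB9 among them besides the 5 with 0 counts. Whether these genes changed was thus left untested by the main fits. Without the filter on low counts, HSPA12A was called higher in THP1 at baseline (5.15, adjusted p = 0.012, edgeR's quasi-likelihood test). It had 0 counts in both Molm13 shCtrl libraries and 5 in each THP1 shCtrl library.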

How the data were processed

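The authors prepared polyA libraries with a Kapa mRNA HyperPrep kit and deposited raw counts of reads per gene for each library, in 1 table per line. The submitters' processing notes name TopHat2 2.0.8, HTSeq 0.11.2, edgeR 3.30.3 and hg38; the annotation release and strand setting are not given in the sources used here. Exon lengths came from the deposited Molm13 table.

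Later steps used edgeR 4.0.16 and, for comparison, DESeq2 1.42.0, under R 4.3.3. Each line was fitted on its own over all genes by edgeR's quasi-likelihood test, after filterByExpr and TMM scaling, and P values were adjusted by Benjamini-Hochberg. A fit of all 8 libraries gave the difference between the lines and the baseline. The standard error is the size of the log2 fold change over the root of its F value. CPM used TMM-scaled totals, and RPKM is CPM per kilobase of exon. The tests were tried on simulated data. Library totals of 18720950 to 27356870 counts set the precision, and replicates of a group differed by 1.35 to 2.16 times the counting variance.

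Members and lists were chosen with earlier results of these data known. Named members were a fixed list of 20, the 10 largest falls and rises called per line, the 10 members whose effect differed between lines at the lowest FDR and the 5 widest baseline differences in each direction. Others were named after their values were seen. Alternatives were other normalizations, filters, limits and tests, a replicate block, and leaving out each library. Protein sequences were not used here.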

Additional observations from a re-analysis of the deposited data

Results flagged for a closer look

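The change with PRMT9 KD was set side by side in both lines. In the fit of all 8 libraries, 34 of the 74 members passed the limits for a difference between the lines (45.9%, against 20.9% of all genes). The log2 fold change in THP1 exceeded that in Molm13 by 1.49 for HSPH1, 1.11 for CCT6A, 1.06 for STIP1, 1.00 for HSPA4 and 0.99 for DNAJC10. The difference was 0.91 for both DNAJA1 and HSP90AA1, 0.86 for HSPA5, 0.79 for HSPA8 and 0.75 for CCT5. These are the 10 members that came first in that fit. Because each difference contains the Molm13 contrast through which the family was proposed, the number and the values describe these libraries and are no independent evidence of a difference.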

How the results depend on the processing

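The counts of members called turned on the limits. At FDR alone 60 members were called in Molm13, 38 in THP1, 57 for the difference between lines and 66 at baseline (edgeR's quasi-likelihood test). Over all genes the shares were 66.9%, 37.6%, 42.2% and 82.8%. With a fold limit of 2, members called were 9 of 70 tested, 0 of 73, 11 of 74 and 15 of 74. Over all genes these were 1302 of 16446, 400 of 16294, 1876 of 19288 and 8874 of 19288. In THP1, 41 members had an unadjusted p under 0.05 and DESeq2 called 1 at the 1.5-fold limit. With each library left out in turn the counts ran from 23 to 26 in Molm13, stayed at 1 in THP1, and ran from 28 to 34 for the difference and 28 to 31 at baseline. The median log2 fold change ran from -0.331 to -0.289 in Molm13 and from 0.0796 to 0.0920 in THP1, where it was 0.0696 with library size alone and 0.0783 without the filter on low counts. With a fold limit of 2 the Molm13 calls were 4 lower and 5 higher, against 19 and 6. The split by direction over all genes was not counted at that limit, so nothing is read from it. Members near the fold limit in Molm13 moved across it when 1 library was left out. DNAJB4 (0.54 without shCtrl replicate 1), TCP1 (-0.58 without shCtrl replicate 2 and -0.57 without shPRMT9 replicate 1), DNAJC25 (-0.57 and -0.52 without the same libraries) and CCT5 (-0.58 without shPRMT9 replicate 2) lost their call. DNAJA3 (-0.60 without shCtrl replicate 1 and -0.59 without shPRMT9 replicate 1), DNAJB2 (0.66) and DNAJC18 (0.72), both without shPRMT9 replicate 2, gained one. In THP1 the sign of changes near 0 turned, and so did that of HSPA1A. HSP90B1 was at -0.023 with library size alone and -0.0085 without the filter, and HSPD1 at 0.0023 with a CPM filter and 0.0043 in the common fit. Leaving out libraries gave -0.0016 to 0.0059 for HSP90B1, -0.015 to 0.0068 for HSPD1, -0.0996 to 0.0704 for HSPB1 and -0.0972 to 0.0293 for HSF2. HSPA1A, at 0.25 ± 0.28 with all THP1 libraries and 31 to 47 counts in them, ran from -0.0913 to 0.529. The causes were not tested. With a replicate block 25 members were called in Molm13, 1 in THP1, 34 for the difference and 29 at baseline. Over all genes these were 3711 of 16446, 1019 of 16294, 3967 of 19288 and 11061 of 19288. DESeq2 gave 25, 1, 28 and 28, with 5 rather than 9 members called lower for the difference. Of the same genes tested, DESeq2 called 3347, 904, 3303 and 10797. Same-numbered libraries did not deviate together (correlation of deviations -0.087 in Molm13 and -0.0146 in THP1), so the numbers were not read as pairs. No other alternative moved a count of members called, in either direction, by over 1.5 times. With 2 libraries per group, each spread rests on a single pair.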
